A study of Homo sapiens with 33 samples.

Results

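The immunoglobulin-type cell adhesion molecules described here are the intercellular adhesion molecules ICAM1, ICAM2, ICAM3, ICAM4 and ICAM5, the vascular cell adhesion molecule VCAM1, the neural adhesion molecules L1CAM and NCAM1, ALCAM (the activated leukocyte cell adhesion molecule, CD166) and MCAM (CD146). They were chosen by name, with earlier results of these data known, and are 10 of the 58302 genes in the matrix. RNA-seq was made of 6 established cell lines. H2052, H2452, H28 and MSTO-211H are malignant pleural mesothelioma (MPM) lines that the study classes as sensitive to palbociclib, an inhibitor of CDK4 and CDK6, the kinases that start the cell cycle by phosphorylating pRb. The resistant class holds the MPM line MPP89, whose RB1 is mutated, and also MeT-5A, a non-tumour mesothelial line immortalised with SV40 and used as a model of cells without working pRb. Each line was cultured for 9 or 10 days with 0.1% DMSO or with 1 µM palbociclib, in 2 experiments for H2052 and MPP89, 3 for H2452, H28 and MSTO-211H, and 1 for MeT-5A, which was also sequenced once untreated. For each sensitive line, 1 more library was made after 10 days of palbociclib and 48 h of washout. This gave 33 libraries: 14 DMSO, 14 palbociclib, 4 washout and 1 untreated. A line is 1 cell population, so p-values over the pairs of a line measure the spread between its experiments only.

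These proteins share extracellular immunoglobulin domains and a short tail or membrane anchor, and most of them are cell surface receptors that bind a partner on the next cell. ICAM1 and VCAM1 are the cytokine-inducible ligands of leukocyte integrins (ITGAL and ITGAM with ITGB2 for ICAM1, ITGA4 with ITGB1 for VCAM1), and NF-κB is the known switch of both promoters. L1CAM, NCAM1, ALCAM and MCAM bind copies of themselves or one another and are known for axon growth, T cell contact (ALCAM with CD6) and the migration of tumour and endothelial cells.

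Over the pairs of the 4 sensitive lines together, ICAM1, VCAM1 and L1CAM were called higher with palbociclib and ALCAM and MCAM lower, though VCAM1 was lower in all pairs of H2452 and MCAM had a mean difference near 0 in MSTO-211H. The promoters of ICAM1 and VCAM1 (called higher) and of ALCAM (lower in every pair) are therefore shown, each as the 250 bases before the RefSeq start site on GRCh38.p14, 5′ to 3′ on the strand of the gene (plus for all of these). Capitals mark matches, on either strand, to the NF-κB-like letters GGNNNTTCC and to TATAAA.
ICAM1 (chr19:10270870-10271119): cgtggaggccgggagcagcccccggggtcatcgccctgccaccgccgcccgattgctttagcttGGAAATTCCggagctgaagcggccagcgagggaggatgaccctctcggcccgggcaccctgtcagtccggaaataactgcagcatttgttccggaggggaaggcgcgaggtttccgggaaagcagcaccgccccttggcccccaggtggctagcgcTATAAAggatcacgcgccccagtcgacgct
VCAM1 (chr1:100719492-100719741): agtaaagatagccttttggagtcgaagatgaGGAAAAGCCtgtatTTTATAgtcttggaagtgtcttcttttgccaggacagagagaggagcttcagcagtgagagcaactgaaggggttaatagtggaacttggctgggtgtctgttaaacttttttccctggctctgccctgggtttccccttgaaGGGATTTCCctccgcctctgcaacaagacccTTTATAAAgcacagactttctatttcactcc
ALCAM (chr3:105366659-105366908): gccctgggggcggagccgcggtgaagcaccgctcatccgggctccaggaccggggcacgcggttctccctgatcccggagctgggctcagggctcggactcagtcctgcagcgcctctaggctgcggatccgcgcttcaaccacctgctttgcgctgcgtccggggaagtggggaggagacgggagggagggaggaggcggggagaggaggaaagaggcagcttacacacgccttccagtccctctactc
ICAM1 held GGAAATTCC with its first base 186 bases before the start, where both strands match, and TATAAA 30 bases before it. VCAM1 held GGGATTTCC at 62 bases, a minus strand match at 219 bases, overlapping TATAAA letters of both strands at 31 and 29 bases, and a minus strand TATAAA at 205 bases. ALCAM held neither pattern and 1 GGGCGG at 243 bases. GGGCGG was also found in ICAM1, on the minus strand at 206 and 59 bases, and in ICAM3, ICAM5, L1CAM and MCAM. Of the 8 members with a RefSeq promoter, GGNNNTTCC was found in ICAM1 and VCAM1, and TATAAA was found in the same pair. L1CAM, which was also called higher, and MCAM, which was called lower, held neither. Among all 35116 promoter windows of this length, 17.1% held GGNNNTTCC, 10.7% TATAAA and 42.6% GGGCGG. The letters TGANTCA (6.57% of windows) were not found in any of the 8. A match describes the letters and not a bound site. ICAM2 and NCAM1 had no promoter entry.

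The values are CP20M, the reads of a gene per 20000000 reads of its library, rounded up to whole numbers. Depth could be read from the rounding for 23 of 33 libraries and was between 12770000 and 19790000 reads, so that a read was worth at most 1.57 CP20M and a value below about 5 rests on a few reads. MKI67, a proliferation marker, fell in 11 of 11 palbociclib pairs of the sensitive lines (from 1555-11301 to 171-2496 CP20M) and was between 8453 and 12821 CP20M in the 6 DMSO and palbociclib libraries of MPP89 and MeT-5A. The keratins KRT8 and KRT18, which mesothelial cells make, were at 3480 CP20M or more and 1497 or more in every library. Other mesothelial markers were not present throughout: CALB2 was at 0 in 6 libraries, PDPN in 10 and KRT5 in 16, and MSLN ranged from 1 to 6853 CP20M. CD3E was at 0 in all 33 libraries and the neural genes STMN2 and ELAVL4 did not exceed 1 CP20M, while SYP was present at 5 to 73 CP20M and CHGA at 0 to 32. Other leukocyte markers were present in some libraries, with CD14 up to 1130 CP20M, ITGB2 up to 321 and PTPRC up to 42. Experiment 2 of H2452 stood apart from the other experiments of that line for several members, in DMSO and in palbociclib alike.

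Of the 10 genes, 9 reached 100 CP20M in at least 1 of 33 libraries, the filter of the study, and were tested among 17803 genes. ICAM2, the constitutive ICAM of endothelium and platelets, did not, and had at most 49 CP20M, in untreated MeT-5A. ICAM4, a red cell ICAM, passed through 1 library only (127 CP20M in MPP89 with palbociclib), and VCAM1 through 3 of H28 (625, 214 and 135 CP20M). A count over the tested members is thus not a count over all members.

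**Figure D1:**
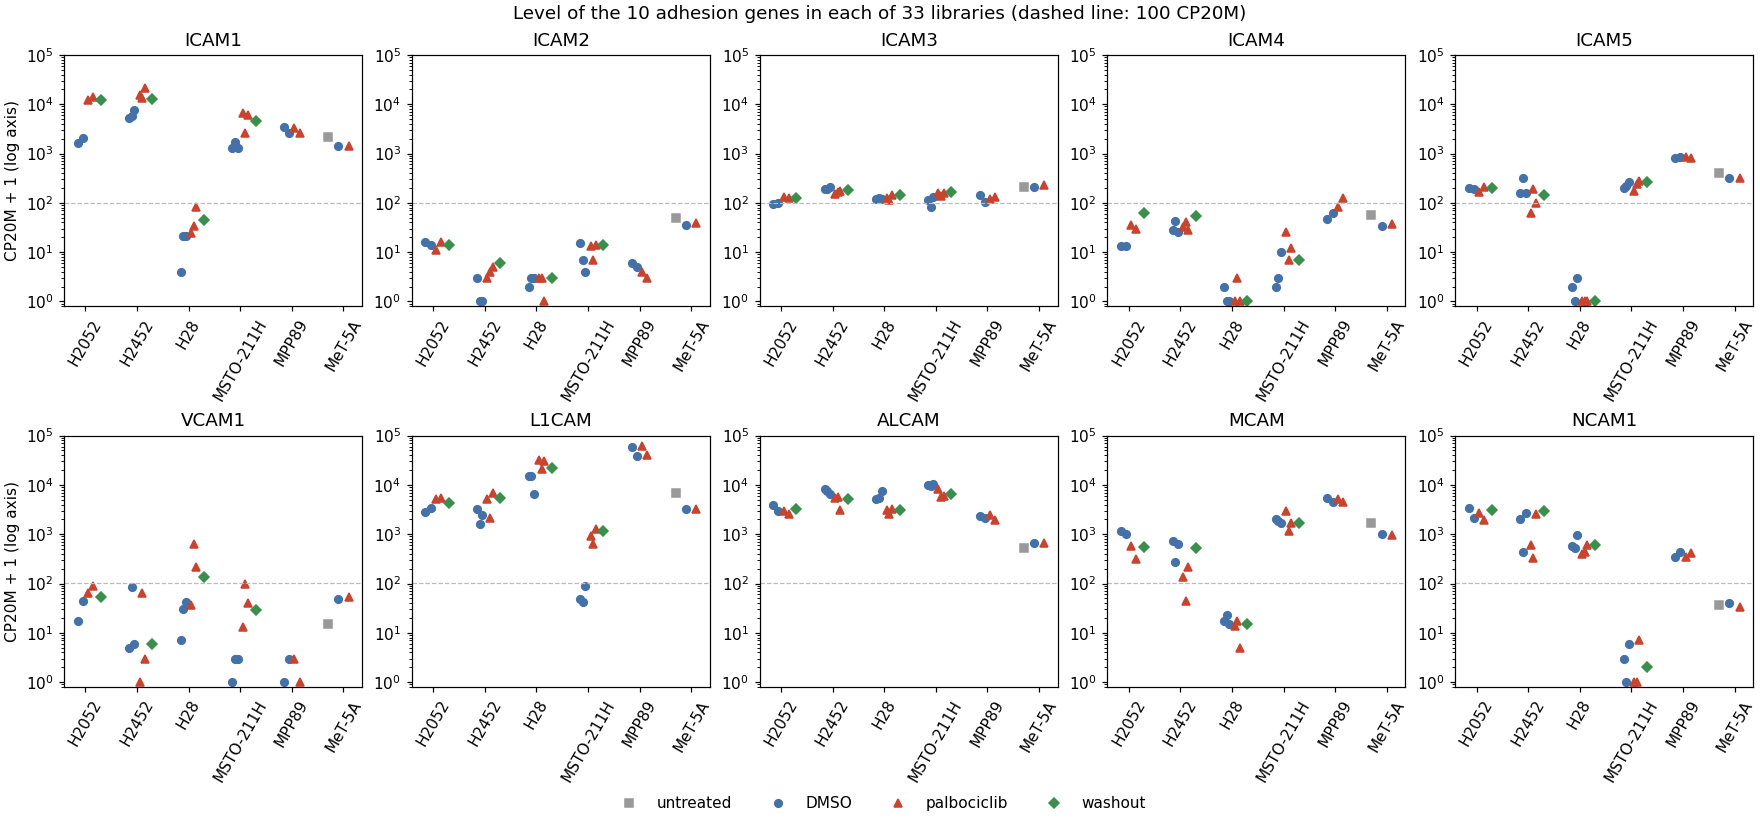
Level of each gene (CP20M + 1, log axis) in each of the 33 libraries, by line. Points are single libraries, coloured and shaped by treatment, and the dashed line is at 100 CP20M. ICAM1 of H28 sits between 3 and 82 CP20M while all other lines are at 1286 or above, and L1CAM spans 42 to 60867 CP20M.

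The first question was which of these genes each line expresses without the drug. In DMSO, the level differed among the 6 lines (F test in limma) for 8 of the 9 tested members, but so it did for 95.6% of all genes. For single pairs of lines, 34% (MPP89 and MeT-5A) to 55.7% (H2052 and H28) of all genes were called, with 50.2% for H2452 and MSTO-211H and 50.3% for H2452 and MeT-5A. VCAM1 was the exception (adjusted p = 0.0631), and the call of ICAM3 was lost without replicate 1 of each line (adjusted p = 0.0890). MeT-5A has 1 DMSO library, whose spread was taken from the other lines.

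ICAM1 was highest in H2452, with 5375, 5747 and 7542 CP20M in its 3 DMSO libraries. MPP89 followed with 3520 and 2548, H2052 with 1638 and 2023, MeT-5A with 1438 and MSTO-211H with 1302, 1677 and 1286 CP20M. H28 had 3, 20 and 20 CP20M. H2452 was above MPP89 (log2 difference 1.04, adjusted p = 0.0137) and MSTO-211H was above H28 (5.97, adjusted p = 3.66e-09), while the neighbours in between were not called different. Untreated MeT-5A had 2197 CP20M.

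ICAM5, a neuronal ICAM, was highest in MPP89 with 814 and 848 CP20M, and lay between 156 and 319 in the DMSO libraries of MeT-5A, MSTO-211H, H2452 and H2052, where no neighbours in the order were called different. In the 3 H28 libraries it was at 1, 0 and 2 CP20M. ICAM3, a leukocyte ICAM, varied least, from 82 to 206 CP20M over the 14 DMSO libraries, and MeT-5A (206) and H2452 (186 to 204) led the order, with H2452 called above MPP89 (log2 difference 0.62, adjusted p = 0.0176). ICAM4 lay between 0 and 62 CP20M, with MPP89 (45 and 62) at the top and H28 (1, 0 and 0) at the bottom. ICAM2 lay between 0 and 34 CP20M in DMSO, with MeT-5A at 34.

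VCAM1 was low in DMSO in all lines. The highest values were 86 in experiment 2 of H2452 (4 and 5 in the other experiments), 47 in MeT-5A, 44 in experiment 2 of H2052 and 41 in experiment 3 of H28. MSTO-211H had 0, 2 and 2 CP20M and MPP89 had 0 and 2. No neighbouring lines in the order were called different.

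L1CAM was the most variable, with MPP89 at 58536 and 38533 CP20M, H28 at 14976, 15312 and 6569, and MSTO-211H at 47, 42 and 87. MeT-5A (3245), H2052 (2791 and 3455) and H2452 (3322, 1632 and 2462) lay between and were not called different from their neighbours among themselves. MPP89 was above H28 by 2.05 on the log2 scale (adjusted p = 0.000717) and H2452 above MSTO-211H by 5.17 (adjusted p = 1.32e-07). Untreated MeT-5A had 6731 CP20M, above its DMSO library (3245), with 1 library each and no test.

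ALCAM was at 659 CP20M or more in every DMSO library. It was highest in MSTO-211H (9987, 9329 and 10326), then H2452 (8326, 7535 and 6489), H28 (5104, 5482 and 7374), H2052 (3841 and 3020), MPP89 (2379 and 2148) and MeT-5A (659). All steps from H28 downwards were called, by 0.79, 0.59 and 1.76 on the log2 scale (adjusted p = 0.00132, 0.0184 and 9.36e-05), and 13 of the 15 pairs of lines were called different. It was the member whose libraries in both resistant lines lay below all of the sensitive lines, by 2.33 on the log2 scale over line means. With 2 of 6 lines the exact permutation test (two-sided) cannot go below p = 0.0667, which is the value of ALCAM, and the other 9 members had p from 0.133 to 1 (adjusted over the 10 members, 0.667 or more for all).

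MCAM was highest in MPP89 (5378 and 4429 CP20M) and was near 0 in H28 (16, 22 and 14). MSTO-211H (2061, 1842 and 1679), H2052 (1180 and 1020), MeT-5A (1016) and H2452 (737, 268 and 632) lay between, and no step among these passed the test. NCAM1 was highest in H2052 (3365 and 2108), followed by H2452 (2012, 432 and 2738), H28 (582, 532 and 986) and MPP89 (351 and 437), with no step called. It then dropped to 39 in MeT-5A (log2 difference 3.04 from MPP89, adjusted p = 0.0109) and to 2, 0 and 5 in MSTO-211H (2.01, adjusted p = 0.0412).

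Levels of different genes were compared per kb of merged exon. On this scale, the sum over the 10 genes was led by a different gene from line to line. L1CAM made up 75.0% of it in MPP89 (n = 2 libraries) and 62.2% in H28 (n = 3), ALCAM 64.0% in MSTO-211H (n = 3) and ICAM1 50.8% in H2452 (n = 3). In H2052 (n = 2), ICAM1 (27.9%), ALCAM (25.1%) and L1CAM (22.6%) were of similar size, as were L1CAM (34.6%) and ICAM1 (32.3%) in the single MeT-5A library. NCAM1 made its largest share in H2052, with 11.3%.

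**Figure D2:**
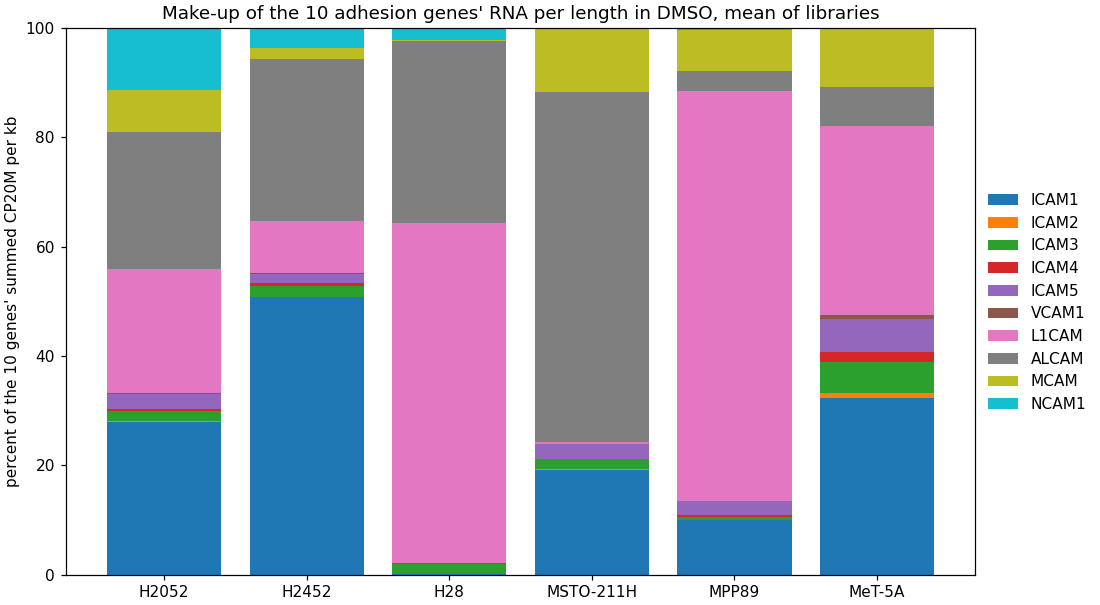
Share of each gene in the summed CP20M per kb of the 10 genes in DMSO, as the mean of the libraries of a line in percent. L1CAM takes 75.0% of the bar in MPP89 and 0.375% in MSTO-211H, where ALCAM takes 64.0%.

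The next question was which members change with palbociclib. Over the 11 pairs of the sensitive lines, 3 of the 9 tested members rose (ICAM1, VCAM1 and L1CAM), against 5.58% of all genes called higher, and 2 fell (ALCAM and MCAM), against 9.37% called lower. Since the members were chosen with earlier results known, and VCAM1 passed the filter through the treated libraries of H28 only, this count is a description. Without a filter VCAM1 was also called (adjusted p = 0.0206). The rises were 1.68 ± 0.21 (SE) for ICAM1 (adjusted p = 3.33e-05), 1.75 ± 0.37 for L1CAM (0.00158) and 1.38 ± 0.38 for VCAM1 (0.00876), as differences of log2(CP20M + 10). The falls were −0.67 ± 0.10 for ALCAM (adjusted p = 0.000108) and −0.93 ± 0.25 for MCAM (adjusted p = 0.00807). As these are bulk libraries scaled to their totals, fewer cells with an RNA cannot be told apart from less RNA per cell. The median of the 9 members was 0.16, beside −0.11 over all genes, and with median-of-ratios scaling, which moves the latter median to 0.06, 3 members stayed called higher and 1 lower, since ALCAM (−0.48) came under the 1.5-fold threshold.

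The remaining tested members were not called. NCAM1 had a difference of −0.39 (adjusted p = 0.0321), which is under the fold threshold, ICAM4 0.39 (adjusted p = 0.0509), ICAM5 −0.28 (adjusted p = 0.0855) and ICAM3 0.16 (adjusted p = 0.230). ICAM2 had 0 to 15 CP20M in both groups.

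All 5 calls held in each of the 11 fits without 1 pair. With the 4 line means as units only ICAM1 (1.78, adjusted p = 0.0136) and ALCAM (−0.64, adjusted p = 0.0264) stayed called, and VCAM1, L1CAM and MCAM had adjusted p = 0.0902, 0.0653 and 0.0925. Pairs of 9 days (7) and of 10 days (4) were also fitted apart. ICAM1 (1.49 and 2.02), L1CAM (1.60 and 2.02) and ALCAM (−0.59 and −0.81) were called at both times, whereas VCAM1 (1.5 and 1.18, adjusted p = 0.0557 and 0.106) and MCAM (−0.90 and −0.99, adjusted p = 0.0781 and 0.0653) were called at neither.

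**Figure D3:**
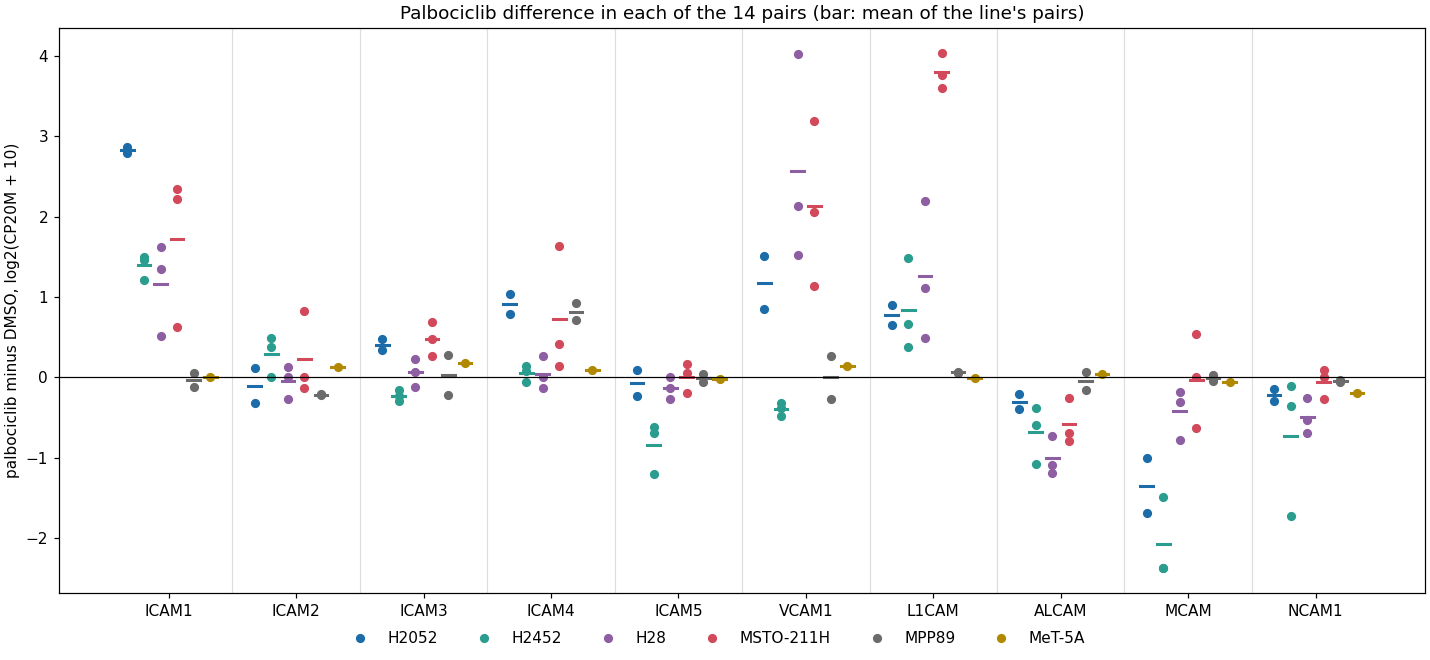
Difference of palbociclib and DMSO, in log2(CP20M + 10), for each of the 14 pairs of libraries, by gene and line. Bars are means over the pairs of a line. ICAM1 lies above 0 in all 11 sensitive pairs and ALCAM below 0 in all 11, L1CAM of MSTO-211H lies at 3.60 to 4.03, and the VCAM1 points of H2452 lie below 0.

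ICAM1 (chr19:10271093-10286615, GRCh38) is the integrin ligand that leukocytes use to adhere and cross endothelium. In H2052, its DMSO values of 1638 and 2023 CP20M compare with 12017 and 14114 in palbociclib. H2452 went from 5375, 5747 and 7542 to 15207, 13370 and 20838, and MSTO-211H from 1302, 1677 and 1286 to 6624, 2594 and 6010 CP20M. In H28 the values were 3, 20 and 20 in DMSO and 23, 33 and 82 in palbociclib. The DMSO and palbociclib libraries did not overlap in any of these lines. This is a description, as the share of all genes without overlap was not computed. Experiment 2 of MSTO-211H showed a smaller difference (0.63) than the other experiments of that line (2.34 and 2.22). The mean difference was 2.83 ± 0.05 (SD, n = 2 pairs) in H2052, a 7.12-fold higher value on the log2(CP20M + 10) scale, 1.39 ± 0.15 (n = 3) in H2452, 1.73 ± 0.95 (n = 3) in MSTO-211H and 1.16 ± 0.57 (n = 3) in H28. It was called in H2052, H2452 and H28 (adjusted p = 0.0320, 0.0123 and 0.0493) and not in MSTO-211H (adjusted p = 0.0586). In H28 the highest library still had 82 CP20M, and the call was lost with a pseudocount of 1 (1.75, adjusted p = 0.0701) or 50 (0.54, adjusted p = 0.0642).

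L1CAM (chrX:153861514-153886173), an adhesion molecule of growing axons that also occurs in carcinomas, changed most in MSTO-211H, the line where it was lowest. Its 47, 42 and 87 CP20M in DMSO became 920, 622 and 1303 in palbociclib, a difference of 3.80 ± 0.21 (SD, n = 3 pairs; adjusted p = 0.0349) or 13.9-fold. H2052 went from 2791 and 3455 to 5218 and 5416 CP20M (0.77 ± 0.18, adjusted p = 0.0400). H28 had 14976, 15312 and 6569 CP20M in DMSO and 32478, 21488 and 30081 in palbociclib (1.27 ± 0.86, adjusted p = 0.0788), the largest difference being that of experiment 3 (2.19), where the DMSO value was lowest. H2452 had 3322, 1632 and 2462 before and 5281, 2126 and 6896 after (0.84 ± 0.57, adjusted p = 0.0677), with overlapping groups. All 11 pairs were higher in palbociclib. With palbociclib, MSTO-211H still had the lowest L1CAM level of the lines.

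VCAM1 (chr1:100719742-100739045), the ligand of the ITGA4 and ITGB1 integrin, was higher in palbociclib in 8 of 11 pairs. H28 had 6, 29 and 41 CP20M in DMSO and 36, 625 and 214 in palbociclib (2.56 ± 1.30 SD, n = 3, adjusted p = 0.0485). Its libraries overlap, it passed the filter through this treated group, and without a filter it was not called (adjusted p = 0.0539). MSTO-211H had 0, 2 and 2 before and 12, 99 and 40 after (2.13 ± 1.02, n = 3, adjusted p = 0.0487). The latter DMSO values stand for a couple of reads at most. The fitted difference runs from 0.87 with a pseudocount of 50 to 4.18 with a pseudocount of 1. No MSTO-211H library reached the filter level (highest 99 CP20M), so VCAM1 was tested there through H28 only. The MSTO-211H call was lost in 8 of 9 alternative fits, among them no filter (adjusted p = 0.0710). It was kept with a pseudocount of 1 (adjusted p = 0.0385). H2052 had 16 and 44 CP20M in DMSO and 64 and 87 in palbociclib (1.18, adjusted p = 0.0530). In H2452 the order was the other way in 3 of 3 pairs, with 4, 86 and 5 CP20M in DMSO and 0, 64 and 2 in palbociclib (−0.39 ± 0.08, adjusted p = 0.0318, under the fold threshold).

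ALCAM (chr3:105366909-105576900), the ligand of CD6, was lower in palbociclib in 11 of 11 pairs, and its groups overlapped in none of the 4 lines. This too is a description without the share over all genes. H28 went from 5104, 5482 and 7374 to 3085, 2563 and 3217 CP20M (−1.0 ± 0.25 SD, n = 3, adjusted p = 0.0266). H2452 went from 8326, 7535 and 6489 to 5518, 5811 and 3083 (−0.68 ± 0.36, n = 3, adjusted p = 0.0437). MSTO-211H had 9987, 9329 and 10326 in DMSO and 8360, 5769 and 5966 in palbociclib (−0.58 ± 0.28, adjusted p = 0.0660), and H2052 had 3841 and 3020 against 2918 and 2621 (−0.30 ± 0.14, adjusted p = 0.0955). The H2052 difference lies near the median of all genes in that line (−0.24) and is 0.02 with median-of-ratios scaling, which moves that median to 0.03.

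MCAM (chr11:119308529-119321521), an adhesion molecule of endothelium and melanoma, fell in H2452 from 737, 268 and 632 to 135, 44 and 220 CP20M (−2.07 ± 0.51 SD, n = 3, adjusted p = 0.0158) and in H2052 from 1180 and 1020 to 585 and 309 (−1.35 ± 0.49, n = 2, adjusted p = 0.0433). In MSTO-211H it had 2061, 1842 and 1679 CP20M in DMSO and 3007, 1188 and 1685 in palbociclib, which overlap (−0.03 ± 0.59, 0.15 with median-of-ratios scaling and 0.27 without experiment 2). In H28 all values were between 4 and 22 CP20M.

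NCAM1 (chr11:112961275-113278436), the neural adhesion molecule that carries polysialic acid, was lower in 9 of 11 pairs and was called in no line. The values of H2452 were 2012, 432 and 2738 CP20M in DMSO and 605, 336 and 2537 in palbociclib, and the difference was carried by experiment 1 (−1.72, against −0.35 and −0.11 in the other experiments). H2052 had 3365 and 2108 against 2739 and 1902, and H28 had 582, 532 and 986 against 400, 445 and 608 CP20M (−0.49, adjusted p = 0.0558). MSTO-211H had at most 6 CP20M.

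Among the remaining ICAMs, ICAM5 (chr19:10289952-10296778) fell in H2452, from 156, 319 and 158 to 62, 193 and 100 CP20M (−0.84 ± 0.32 SD, n = 3, adjusted p = 0.0324), and differed by at most 0.13 in size in the means of the other sensitive lines. ICAM4 (chr19:10286955-10288522) rose in H2052, from 12 and 12 to 35 and 28 CP20M (0.91 ± 0.17, n = 2, adjusted p = 0.0407). It passed the filter through 1 library of MPP89 only. The H2052 call was lost in 4 of 6 alternative fits, among them no filter (adjusted p = 0.106) and a pseudocount of 1 (0.0537). ICAM3 (chr19:10333776-10339661) was higher in all pairs of H2052 and MSTO-211H (0.41 and 0.48) and lower in all pairs of H2452 (−0.23), without a call in any line. ICAM2 (chr17:64002594-64020634) was not tested.

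In the fits of single lines, 3 members were called higher and 1 lower in H2052, where 4.67% of all genes were called higher and 13% lower (17.6% either way). H2452 had 1 and 3 (background 6.04% and 10.8%, 16.8% either way), H28 had 2 and 1 (5.89% and 7.34%, 13.2%) and MSTO-211H had 2 and 0 (5.9% and 7.94%, 13.8%). With 3 pairs the calls of a line rest on all of its pairs: without any single pair of H28 or of MSTO-211H, and without experiment 1 or 3 of H2452, no gene of the 17803 was called, and without experiment 2 of H2452, 1 member (ICAM1) was. H2052 has 2 pairs and cannot be refitted with 1.

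Whether the response differs among the 4 sensitive lines was tested by itself. The F test called 6 of the 9 tested members (ICAM1, ICAM3, ICAM5, VCAM1, L1CAM and MCAM), where it called 37.1% of all genes. L1CAM (adjusted p = 0.000774) ran from 0.77 in H2052 to 3.80 in MSTO-211H, MCAM (adjusted p = 0.00408) from −2.07 in H2452 to −0.03 in MSTO-211H, and VCAM1 (adjusted p = 0.0120) from −0.39 in H2452 to 2.56 in H28. VCAM1 passed the filter only through palbociclib and washout libraries of H28, the line at the top of its range. Its F test is therefore a description. Without the replicate block, MCAM (adjusted p = 0.101) and VCAM1 (0.294) were not called, and neither was VCAM1 with a pseudocount of 50 (0.0506). L1CAM, MCAM and VCAM1 stayed called without any single pair. ICAM1 (adjusted p = 0.0447), ICAM3 (0.0372) and ICAM5 (0.0344) did not: without experiment 1 of H2452 they had adjusted p = 0.0757, 0.107 and 0.156. They were also all lost without experiment 2 of H2052 (0.167, 0.0644 and 0.0612), experiment 2 of H2452 (0.0680, 0.0709 and 0.0636), experiment 3 of H2452 (0.0708, 0.0894 and 0.0507) or experiment 1 of H28 (0.0759, 0.0670 and 0.0610). Other pairs ended the call of 1 or 2 of them: ICAM1 and ICAM3 without experiment 1 of H2052 (0.178 and 0.0706), ICAM1 without experiment 2 of H28 (0.0634), ICAM3 without experiment 1 or 2 of MSTO-211H (0.0545 and 0.0577) and ICAM5 without experiment 3 of MSTO-211H (0.0641). ALCAM, ICAM4 and NCAM1 were not called (adjusted p = 0.104, 0.112 and 0.355), which does not show that their responses were alike, and ICAM4 was called without experiment 1 of MSTO-211H (0.0264).

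In the resistant lines, ICAM1 had 3520 and 2548 CP20M in DMSO and 3240 and 2643 in palbociclib in MPP89, and 1438 and 1443 in MeT-5A. L1CAM had 58536 and 38533 against 60867 and 40543 in MPP89 and 3245 against 3237 in MeT-5A, and ALCAM 2379 and 2148 against 2490 and 1919, and 659 against 677. MCAM had 5378 and 4429 against 5217 and 4511, and 1016 against 979. VCAM1 was at 0 and 2 against 2 and 0 in MPP89 and 47 against 53 in MeT-5A, and NCAM1 at 351 and 437 against 343 and 420, and 39 against 33. limma called 0 of the 9 tested members over the 3 resistant pairs and 0 in MPP89 alone, where it called 0% of all genes as well. In each fit 1 member had an unadjusted p under 0.05, as had 1258 (resistant pairs) and 918 (MPP89) of all 17803 genes. That member was ICAM4, with 45 and 62 CP20M in DMSO and 80 and 127 in palbociclib in MPP89 (0.82, unadjusted p = 0.00300, adjusted p = 0.837) and 33 and 36 in MeT-5A. ICAM4 was called in MPP89 only when the filter was applied within that fit (adjusted p = 0.00750). With either filter it was tested through 1 treated library of MPP89 (127 CP20M), so these p-values are a description.

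The difference between the classes was called for 2 members, against 6.75% of all genes called either way: ICAM1 higher (1.70 ± 0.42 SE, adjusted p = 0.0202; 1.13% of all genes were called higher) and ALCAM lower (−0.65 ± 0.19, adjusted p = 0.0461; 5.62% called lower). L1CAM (1.71 ± 0.73, adjusted p = 0.147), VCAM1 (1.34, adjusted p = 0.279), MCAM (−0.91, adjusted p = 0.262), ICAM4 (−0.19), ICAM5 (−0.27), NCAM1 (−0.30) and ICAM3 (0.08) did not pass. The units of this fit are pairs, with more than 1 from most lines, so its p-values do not measure the spread between lines. Both calls rest on the 3 resistant pairs. Without MPP89 experiment 1, MPP89 experiment 2 or MeT-5A, ICAM1 had 1.65, 1.74 and 1.72 (adjusted p = 0.112, 0.0910 and 0.1001) and ALCAM −0.61, −0.72 and −0.62 (adjusted p = 0.193, 0.125 and 0.185). The call of ALCAM was also lost without the replicate block (adjusted p = 0.0930), with median-of-ratios scaling (−0.43), and without experiment 1 or 3 of H2452 (0.0561 and 0.0599), experiment 1, 2 or 3 of H28 (0.0591, 0.0504 and 0.0518) or experiment 2 or 3 of MSTO-211H (0.0534 and 0.0635). The resistant pairs are all of 9 days.

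The washout libraries address whether these levels return once the drug is removed, with 1 experiment per line and the lines as replicates. MKI67 rose again in 4 of 4 lines (2.99 on the log2 scale, adjusted p = 0.0348), from 177-1816 to 3093-8328 CP20M. None of the 9 tested members was called between washout and palbociclib by limma, where 1.4% of all genes were, all of them higher after washout. 1 member, MCAM, had an unadjusted p under 0.05 (0.0166), as had 2322 of all 17803 genes.

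ICAM1 was lower after washout than in palbociclib in 4 of 4 lines, with changes from 14114 to 12303 CP20M (H2052), from 20838 to 12471 (H2452), from 82 to 44 (H28) and from 6010 to 4523 (MSTO-211H) (mean difference −0.53 ± 0.27 SD, n = 4, adjusted p = 0.441). It was still above DMSO in 4 of 4 lines, by 1.49 ± 0.88 (adjusted p = 0.0104). L1CAM was likewise below palbociclib in 4 of 4 lines, with 5416 and 4308, 6896 and 5478, 30081 and 22491, and 1303 and 1187 CP20M (−0.30 ± 0.12, adjusted p = 0.854), and above DMSO in 4 of 4 (1.72 ± 1.41, adjusted p = 0.0389). These were the 2 members called against DMSO, both higher, where 2.81% of all genes were called higher and 2.95% lower (5.76% either way). Without H2052 or without MSTO-211H, neither was called (ICAM1 1.13 and 1.39, adjusted p = 0.0506 and 0.0802; L1CAM 2.18 and 1.08, adjusted p = 0.0593 and 0.0902), and L1CAM was not called without H2452 (adjusted p = 0.0955) or H28 (0.128) either. Without the line as a block, neither was called.

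VCAM1 went from 87 to 52 CP20M in H2052, from 214 to 135 in H28 and from 40 to 28 in MSTO-211H, and from 2 to 5 in H2452 (−0.34 ± 0.45, adjusted p = 0.779). MCAM was higher after washout in 4 of 4 lines, from 309 to 554 CP20M in H2052, 220 to 536 in H2452, 4 to 14 in H28 and 1685 to 1728 in MSTO-211H (0.72 ± 0.50, adjusted p = 0.237). ALCAM was above palbociclib in 3 of 4 lines, with 2621 and 3220 in H2052, 3083 and 5288 in H2452 and 5966 and 6619 in MSTO-211H, while H28 had 3217 and 3130 CP20M (0.30 ± 0.35, adjusted p = 0.581). Against DMSO, ALCAM after washout differed by −0.52 ± 0.56 (adjusted p = 0.110) and MCAM by −0.27 ± 0.42 (adjusted p = 0.511). NCAM1 went from 1902 to 3082 CP20M (H2052), from 2537 to 2988 (H2452), from 608 to 609 (H28) and from 6 to 1 (MSTO-211H). ICAM4 had its highest values of H2052 (61) and H2452 (54) after washout, against 35 and 41 at most in their other libraries (0.33 ± 0.62 over the 4 lines, adjusted p = 0.71).

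**Figure D4:**
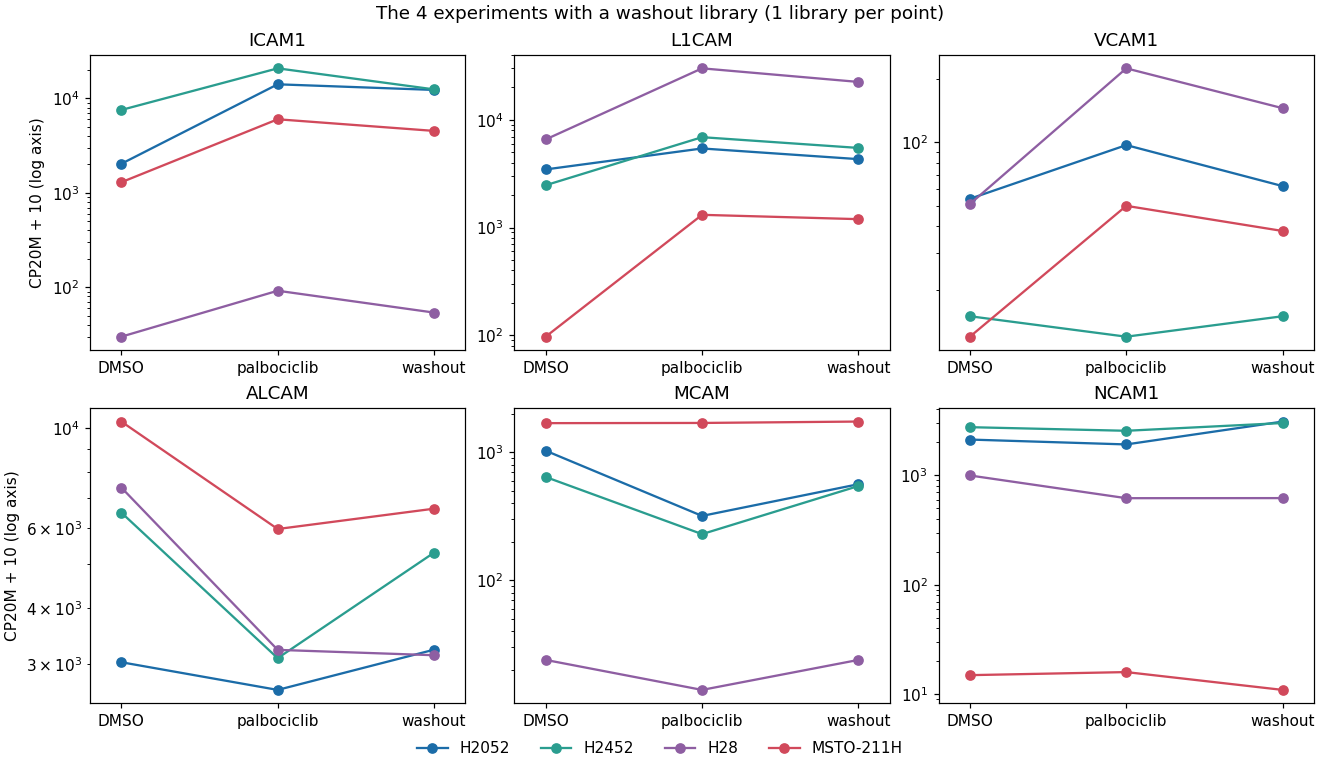
Level (CP20M + 10, log axis) of 6 genes in the DMSO, palbociclib and washout library of the same experiment, 1 line per cell line and 1 library per point. For ICAM1 and L1CAM the washout point lies below the palbociclib point and above the DMSO point in all 4 lines, and for MCAM above the palbociclib point in all 4.

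ICAM1, ICAM4, ICAM5 and ICAM3 lie within 68569 bases on chromosome 19, with 339 bases between ICAM1 and ICAM4 and 1429 between ICAM4 and ICAM5. In H28 the first 3 of these genes were near 0 together. ICAM4 was also low in MSTO-211H (1, 2 and 9 CP20M in DMSO), which was not called different from H28. Genes on either side were expressed there, and some lay within the range of the other lines: in the 3 DMSO libraries of H28, MRPL4 had 1140 to 1483 CP20M (1049 to 2004 in the other lines), RAVER1 1921 to 2147 (1301 to 2262), TYK2 1452 to 1628 (1082 to 2974) and ICAM3 119 to 122 (82 to 206). Other neighbours lay wholly below the other lines in H28: AC011511.2 had 400 to 548 CP20M (549 to 1278), ZGLP1 27 to 29 (31 to 72), AC011511.1 152 to 158 (235 to 451) and FDX2 130 to 137 (208 to 406), and PDE4A, further along, was at 9 to 17 against 156 to 541. Over the 15 neighbouring genes tested, 1 was called higher and 1 lower with palbociclib in the sensitive lines, the antisense gene described next and DNMT1. Of all genes, 5.58% were called higher and 9.37% lower. The median of the 15 was −0.15, beside −0.11 over all genes.

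**Figure D5:**
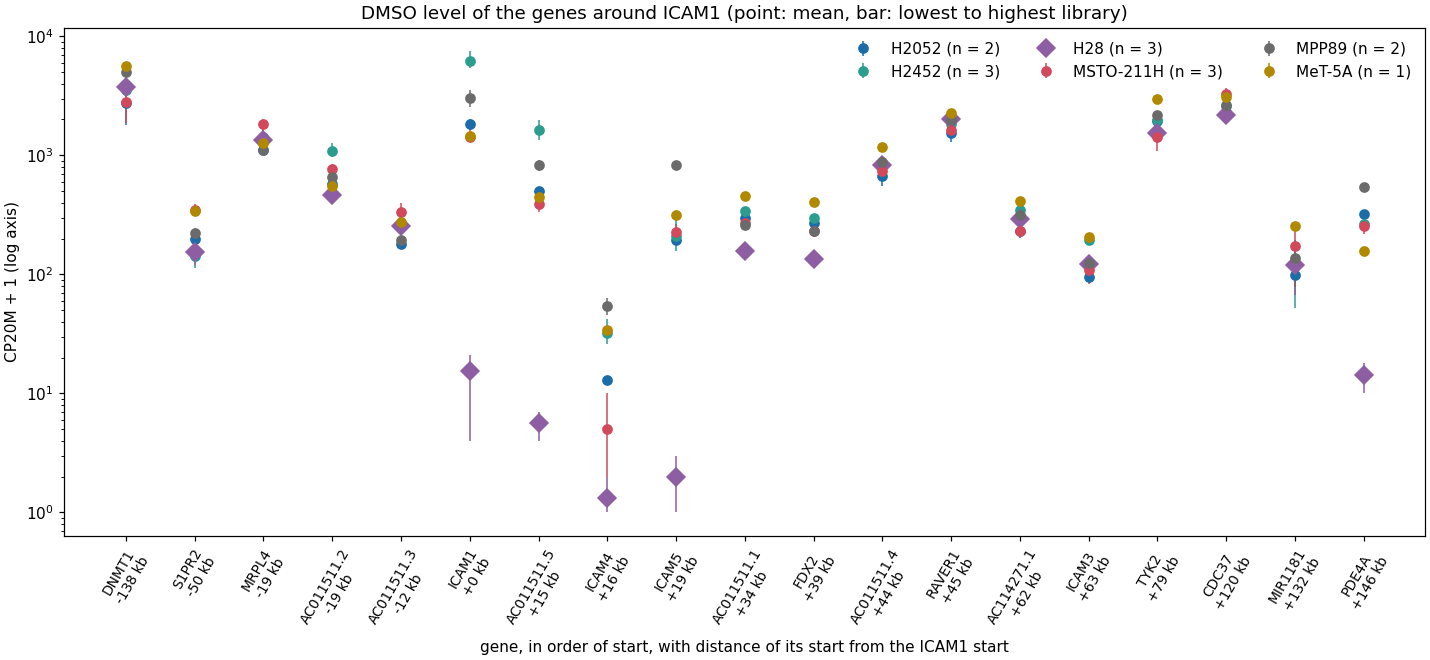
DMSO level (CP20M + 1, log axis) of the genes around ICAM1 that passed the filter, in order of their start along the chromosome. Points are means of the libraries of a line and bars run from the lowest to the highest library. The H28 diamonds fall to 14.3 CP20M at ICAM1, 0.333 at ICAM4 and 1 at ICAM5, and lie among the other lines at MRPL4, RAVER1 and ICAM3.

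The antisense gene AC011511.5 (ICAM4-AS1 in GENCODE 44) covers all 1568 bases of ICAM4 and the last 815 of ICAM1 on the opposite strand. It had the value most like ICAM1 over the 33 libraries, with r = 0.997 of log2(CP20M + 10), and its ratio to ICAM1 was between 0.252 and 0.330 in all 26 libraries where ICAM1 reached 100 CP20M, a range over which ICAM1 itself ran from 1286 to 20838. In the sensitive lines it rose by 1.53 ± 0.25 (SE, adjusted p = 0.000292). The library kit keeps the strand, but whether the counting used it is not given in the sources used here. Without it, reads of ICAM1, ICAM4 and the antisense gene cannot be told apart where they overlap, so ICAM4 is uncertain. The same holds for L1CAM and its antisense gene LCA10 (L1CAM-AS1 in GENCODE, r = 0.913) and for NCAM1 and NCAM1-AS1 (r = 0.942). Other genes on the opposite strand are LIMASI (AC011511.2 in the matrix), which overlaps ICAM1 by 14016 bases, AC114271.1 over 2473 bases of ICAM3, CBL over 5398 bases of MCAM and PRR29 over 1712 bases of ICAM2, and NCAM1 is overlapped by 2 further lncRNAs (2186 and 187 bases).

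By the same measure over all 33 libraries and all tested genes, the genes next most like ICAM1 were PAPSS2 (r = 0.977) and CPA4 (0.973). ALCAM was most like PARP8 (0.916) and TXNRD1 (0.914), L1CAM like ZNF738 (0.921) and JUP (0.915), MCAM like PRPF4 (0.957) and ATG2B (0.956), NCAM1 like CELF2 (0.944), ICAM5 like ZNF772 (0.975) and RIOX1 (0.966), and ICAM4 like LIN37 (0.924). VCAM1 (CCDC127, 0.758) and ICAM3 (SSR1, 0.817) had no gene as close. Among the members themselves, ICAM5 and MCAM were the most alike (r = 0.923), followed by ICAM1 and ICAM5 (0.784), and VCAM1 and MCAM ran most against each other (−0.553), before L1CAM and ALCAM (−0.512). The points are libraries of 6 lines and share their lines, so these values mostly describe differences between lines.

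Related genes were looked at as lists. Of 26 other adhesion genes with immunoglobulin domains, 23 were tested, and 6 rose and 0 fell over the sensitive pairs (median 0.37, beside −0.11 over all genes, of which 5.58% were called higher and 9.37% lower). In single lines, H2052 had 5 called higher and 2 lower (4.67% and 13% of all genes). H2452 had 7 higher and 2 lower (6.04% and 10.8%). H28 had 3 each way (5.89% and 7.34%) and MSTO-211H had 7 higher and 1 lower (5.9% and 7.94%). The 6 were NRCAM (1.06) and NFASC (0.94), which belong to the L1 family, NCAM2 (0.69), the paralogue of NCAM1, CADM3 (1.008), CEACAM1 (0.77) and PVR (0.73), the poliovirus receptor and ligand of CD226 on natural killer cells. PVR was also the gene of this list called for a difference between the classes (0.71, adjusted p = 0.0239), and NECTIN2 (0.56, adjusted p = 0.0226) was under the fold threshold there. Of all genes, 1.13% were called higher in that test and 6.75% either way.

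Of the receptors on the other cell, the leukocyte integrins and CD6, 5 of 9 were tested and limma called 0. An unadjusted p under 0.05 was found for 2, ITGB1 (0.41) and ITGB7 (−0.43), and for 9819 of all 17803 genes. In single lines, ITGAX was called lower in H2052 (−1.72) and H2452 (−0.78) and higher in H28 (1.29), and in H2452 ITGB2 was called higher (1.22) and ITGB7 lower (−0.82). ITGB1 was at 9820 CP20M or more in every library and is made by most adherent cells. ITGAL did not exceed 12 CP20M and CD6 did not exceed 19. Of the 8 sheddases and membrane linkers, ANK2, the ankyrin that anchors L1-type proteins, rose (1.36 ± 0.28 SE, adjusted p = 0.00128) and 0 fell. Over all genes, 5.58% were called higher and 9.37% lower. ADAM10 (0.23) and ADAM17 (−0.20), which cut L1CAM and ALCAM from the surface, were not called.

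Among genes that act on the ICAM1 and VCAM1 promoters or are induced with them, TNFAIP3, an NF-κB target that damps the pathway, rose by 1.23 ± 0.26 (SE, adjusted p = 0.00193) and IL1B, the inflammatory cytokine, by 0.96 ± 0.38 (adjusted p = 0.0487). NFKB1 (−0.42, adjusted p = 5.10e-05), REL (−0.42, adjusted p = 0.00466) and the inhibitor NFKBIA (−0.515, adjusted p = 0.00395), were under the fold threshold. NFKB2, RELA, RELB, BIRC3, IRF1 and IL1A lay between −0.24 (BIRC3) and 0.50 (IL1A) with adjusted p of 0.0690 (RELA) or more, and TNF was not tested. In single lines, NFKBIA was called lower (−0.98) and IL1A higher (1.82) in H2452, and REL lower (−0.83) in MSTO-211H. These are not all single-line calls of the list, as genes of it were also called higher in H2052, H28 and MSTO-211H. In the test of the difference between the classes, TNFAIP3 (adjusted p = 0.126) and IL1B (0.420) did not pass. After washout, TNFAIP3 (1.64) and IL1B (1.52) were called higher than in DMSO, as was PVR (0.65).

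Markers of other cell types that carry these proteins were checked in the same fit. Of 6 endothelial markers 3 were tested and of 6 leukocyte markers 2, with 0 called in each over the sensitive pairs. None of the 4 neural markers was tested. Of all genes 15% were called either way there, so with so few markers 0 calls do not show that other cell types were unchanged. In single lines, both tested leukocyte markers were called higher in H2452 (CD14 1.20 and ITGB2 1.22), and 1 endothelial marker was called higher in each of H2452 (TEK 0.60), H28 (PECAM1 0.75) and MSTO-211H (KDR 1.19). Their part in the results of these lines was not tested. The summed level in the sensitive lines was 8 to 158 CP20M in DMSO and 24 to 338 in palbociclib for endothelial markers, and 4 to 368 and 11 to 1153 for leukocyte markers, the latter reaching its top through CD14 (1130 at most). Of the 10 mesothelial markers, 9 were tested, and CALB2 rose (1.69, adjusted p = 0.00409) and 0 fell, against 5.58% of all genes called higher and 9.37% lower. The summed level of the 10 mesothelial markers was 11230 to 96105 CP20M in DMSO and 13906 to 140688 in palbociclib.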

How the data were processed

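The authors trimmed paired-end reads with Trimmomatic 0.36, mapped them to GRCh38 with STAR 2.5.3, counted them per Ensembl gene with HTSeq 0.9.1 and called genes with DESeq2. The deposited values are a score, counts per 20000000 reads (CP20M) rounded up to whole numbers, so count models were not used. Column totals were 20007662 to 20021400.

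Here log2(CP20M + 10) of the 17803 genes with at least 100 CP20M in 1 of 33 libraries was fitted with limma 3.58.1 (lmFit, eBayes with trend) in R 4.3.3, with the experiment as a block (washout fits: the line; levels: none). Genes were called at an FDR (Benjamini-Hochberg, over all tested genes) under 0.05 with at least a 1.5-fold change; F tests have no fold threshold. The study states that treated and control cells were paired by experiment, and deviations of same-numbered libraries correlated (r = 0.18 to 0.78 across genes, which are not independent). Line means were compared with an exact permutation test. At most 4.33% of genes were identical between replicates of a group. Named genes are the members, fixed lists and, per tested member, the 3 genes of highest r. Of the list of promoter regulators, 1 gene is not reported here. Members and lists were chosen with earlier results of these data known. The functions were tested on simulated data. Alternatives were other pseudocounts, scaling, filters, no trend, no block, line means and leaving out pairs, plus fits by treatment time, chosen after seeing the data. Positions are from GENCODE 44; promoters from RefSeq (GRCh38.p14). Python 3.11.15 and matplotlib 3.10.9 drew the figures.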

Additional observations from a re-analysis of the deposited data

Results flagged for a closer look

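Over the 4 lines with a washout library, the gap of an extreme line to its nearest neighbour was compared with the whole range for 20 sets of differences, of which chance alone would mark about 1 in 20. It stood out in 1 set: ICAM5 after washout against palbociclib, where H2452 (0.46) lay apart from H2052 (−0.06), MSTO-211H (−0.04) and H28 (0, with 0 CP20M in both libraries), with a gap of 0.881 of the range.

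The response to palbociclib differed between the pairs of the sensitive and the resistant lines for ICAM1 (adjusted p = 0.0202 in limma, 1.70, higher in 11 of 11 sensitive pairs and in 2 of 3 resistant pairs, by at most 0.05 there) and for ALCAM (adjusted p = 0.0461, −0.65, lower in 11 of 11 sensitive pairs and in 1 of 3 resistant pairs). Pairs and not lines were the units, and both calls were lost without any 1 of the 3 resistant pairs. Among the 4 sensitive lines the response differed for L1CAM (adjusted p = 0.000774), MCAM (0.00408), VCAM1 (0.0120), ICAM5 (0.0344), ICAM3 (0.0372) and ICAM1 (0.0447). For VCAM1 this is a description, as it passed the filter only through palbociclib and washout libraries of H28. The VCAM1 pairs of H2452 went against those of the other lines, the L1CAM difference of MSTO-211H was larger than that of any other line, and ICAM3 was lower in 3 of 3 pairs of H2452 and higher in all 5 pairs of H2052 and MSTO-211H.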

How the results depend on the processing

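The count of 5 members called over the sensitive lines stayed at 5 in all 11 fits without 1 pair and without the replicate block, and was 2 with line means as units, 3 with the pairs of 9 days and 3 with the pairs of 10 days. The H2052 count of 4 was 1 with a pseudocount of 1, 1 without a filter and 0 without the trend. In H2452 the count of 4 was 2 with median-of-ratios scaling, 1 with no replicate block and 0 to 1 without 1 pair. The 3 calls of H28 came to 1 with a pseudocount of 50, without a filter, without the trend and with no replicate block, and to 0 without any pair. The 2 calls of MSTO-211H came to 1 with a pseudocount of 50, median-of-ratios scaling, no filter or no trend, and to 0 without any pair. MPP89 had 0 calls, and 1 with the filter within the fit, while the resistant lines had 0 throughout. That call was ICAM4, which passed the filter through 1 treated library of MPP89. The 2 calls of the class difference came to 1 with a pseudocount of 50, median-of-ratios scaling, no filter, no trend or no replicate block, and to 0 to 2 without 1 pair. The 6 members whose response differed among the sensitive lines came to 1 with no replicate block and to 3 to 6 without 1 pair. Between washout and DMSO the 2 calls came to 1 with no filter or no trend, 0 with no replicate block and 0 to 1 without 1 line. The count of 8 for levels among the lines was 7 to 8 without 1 replicate number, and washout against palbociclib stayed at 0. The block changed no other count by over 1.5 times. ALCAM in H2052 reversed with median-of-ratios scaling (0.0162), as did MCAM in MSTO-211H (0.147; between −0.312 and 0.274 without 1 pair, the latter without experiment 2) and the level of VCAM1 in resistant against sensitive lines (0.02 as reported; −0.311 with a pseudocount of 1, −0.0651 with median-of-ratios scaling and −0.288 with the untreated library added). Where fewer pairs remain, fewer are the residual degrees of freedom; the cause of the other changes was not tested. H2052 and MPP89 were not refitted without a pair, because 1 pair leaves no residual spread. Depth limits VCAM1, ICAM2 and ICAM4, and ICAM1, ICAM5 and MCAM in H28, whose values rest on few reads.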
